A study of Mus musculus with 8 samples.

Results

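Malat1, Neat1 and 8 host genes of small nucleolar RNAs (snoRNAs), namely Gas5, Snhg1, Snhg3, Snhg5, Snhg6, Snhg8, Snhg12 and Snhg15, were followed in mouse blood stem cells. These 10 genes were taken by symbol from the 53715 genes counted, all 10 were found, and all 10 were among the 13992 genes with enough counts to test. The cells were bone marrow haematopoietic stem cells sorted as LSK CD48- CD150+ (lineage-negative, Sca-1-positive and Kit-positive cells that lack CD48 and carry CD150), and total RNA was depleted of ribosomal RNA before sequencing, so transcripts without a poly(A) tail were also sampled. There were 4 libraries labelled Gata2; Mx1-Cre heterozygote (HET 1 to HET 4) and 4 labelled Gata2 wild type (WT 1 to WT 4), 1 per mouse. All mice of both labels were 8 to 12 weeks old and had received 6 doses of pIpC, a double-stranded RNA mimic that induces interferon. Mx1-Cre is a recombinase transgene that interferon switches on in blood cells and in other tissues, and the sources used here do not give whether the mice labelled wild type carried it too. The comparison asks whether the level of these RNAs differs when 1 copy of Gata2, a transcription factor of blood stem cells, is targeted.

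Malat1 and Neat1 are long nuclear RNAs that neighbour each other in the genome. Malat1 collects in nuclear speckles, bodies rich in splicing factors, and Neat1 is the scaffold of paraspeckles, bodies that hold RNA-binding proteins such as Nono and Sfpq. Malat1 and the long form of Neat1 do not end in an ordinary poly(A) tail: RNase P cuts the precursor, and the new end is protected by a triple helix of a pair of U-rich stretches with an A-rich one. The Gas5 and Snhg genes carry snoRNAs in their introns. The introns give box C/D snoRNAs, which guide ribose methylation of ribosomal RNA, or box H/ACA snoRNAs, which guide pseudouridylation, while the spliced exons of several hosts are unstable because ribosomes read their short frames and nonsense-mediated decay removes them. Many hosts start, like the messages of ribosomal proteins, with a C followed by a run of pyrimidines, the 5′ terminal oligopyrimidine (5′TOP) start, which ties translation and stability to growth signals.

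Total fragments assigned to genes ran from 16750778 to 22861884 per library. Gata2 itself had 35.5, 61.9, 36.7 and 45.1 CPM (fragment counts scaled to the library total) in HET 1 to HET 4 and 30.1, 45.3, 29.1 and 38.5 CPM in WT 1 to WT 4. Gata2 was thus not lower in the libraries labelled heterozygote, so every direction below follows the labels alone; the count covers all exons, and the part that recombination removes was not counted separately. The 10 stem cell markers summed to 1227 to 1456 CPM in libraries labelled heterozygote and 1224 to 1686 CPM in those labelled wild type. The defining T cell markers Cd3e and Cd3g were at 0 in all 8 libraries, whereas the B cell receptor gene Cd79b lay at 103 to 129 CPM and the platelet gene Pf4 at 407 to 814 CPM. The correlation of a library's deviations with GC content across genes was -0.0342, -0.0873, -0.0988 and -0.0366 in HET 1 to HET 4, against 0.18, 0.232, -0.162 and 0.0402 in WT 1 to WT 4. Over all 13992 genes, 0 passed an adjusted p of 0.05 in edgeR's quasi-likelihood test and 792 had an unadjusted p under 0.05, while limma called 0 and DESeq2 called 29, with 0 of the 10 genes among them.

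The 3′ ends of Malat1 and Neat1 share the letters of the triple helix, and both stretches are shown because these letters are what unites the 2 genes in sequence. They were read from the transcripts of GENCODE M21 on GRCm38. Malat1 lies on chromosome 19 at 5795690 to 5802672 on the minus strand as 1 counted block of 6983 bases, and the stretch shown is chr19:5795982-5796071. Neat1 lies on the same strand at 5824708 to 5845478 as 1 counted block of 20771 bases, and the stretch shown is chr19:5824708-5824803. Capitals mark the 3 runs of at least 11 bases that the last 400 bases of Malat1 and the last 120 bases of Neat1 have in common.
Malat1: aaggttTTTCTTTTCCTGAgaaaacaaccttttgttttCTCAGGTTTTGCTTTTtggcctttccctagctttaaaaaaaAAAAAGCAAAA
Neat1: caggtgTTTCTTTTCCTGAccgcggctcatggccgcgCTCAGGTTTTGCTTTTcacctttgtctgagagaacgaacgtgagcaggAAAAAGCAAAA
The first 2 shared runs, TTTCTTTTCCTGA and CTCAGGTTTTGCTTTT, hold the U-rich letters, written here as DNA, and the last, AAAAAGCAAAA, is A-rich. They stand in the same order in both genes. Of 134529 transcripts of at least 200 bases, 35 hold the first run, 2 the second and 618 the last on the transcribed strand, and those holding all 3 in this order within 120 bases were 2 (0.00149%), the full-length transcripts of Malat1 and Neat1. In Neat1 the A-rich run is the end of the annotated transcript, with 0 bases after it. In Malat1 the annotated transcript goes on for 292 bases, so the counted gene includes sequence beyond the A-rich end. The runs were found by comparing these 2 genes, so their rarity elsewhere describes them and tests nothing.

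The starts of the host genes are shown because the 5′TOP start is the feature they are known to share with ribosomal protein genes. RefSeq windows (GRCm38.p6) were found for 8 of the 10 genes, and Neat1 and Snhg6 had none. Each line gives 30 bases before and 50 bases after an annotated start, and capitals mark the run of C and T that begins at the first transcribed base. All 4 host windows whose first base is C or T are shown, with that of Snhg15 as 1 of the other 4, in which the first base is A or G and the run has 0 bases (Snhg3, Snhg5, Snhg15 and the other start of Gas5). The windows are chr1:161035136-161035215 on the plus strand for Gas5, chr3:123508287-123508366 on the minus strand for Snhg8, chr4:132308648-132308727 on the plus strand for Snhg12, chr19:8723457-8723536 on the plus strand for Snhg1 and chr11:6528711-6528790 on the minus strand for Snhg15.
Gas5: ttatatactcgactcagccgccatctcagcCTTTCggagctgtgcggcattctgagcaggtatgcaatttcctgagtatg
Snhg8: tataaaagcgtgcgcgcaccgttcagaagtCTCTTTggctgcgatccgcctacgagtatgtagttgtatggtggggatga
Snhg12: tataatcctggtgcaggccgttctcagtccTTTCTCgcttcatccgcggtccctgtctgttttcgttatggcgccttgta
Snhg1: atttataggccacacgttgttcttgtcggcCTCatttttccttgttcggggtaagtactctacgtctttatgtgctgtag
Snhg15: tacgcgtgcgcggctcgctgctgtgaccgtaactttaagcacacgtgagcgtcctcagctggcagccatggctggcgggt
Gas5 has 2 annotated starts, and the one shown begins with a run of 5 pyrimidines whose first base is C. The run has 6 bases and begins with C in Snhg8, has 6 bases and begins with T in Snhg12, and has 3 bases and begins with C in Snhg1. A C followed by at least 4 more of C or T, on the transcribed strand, began exactly at the start in 2 of the 8 host windows (25%), in 13 of 74 windows of ribosomal protein genes (17.6%) and in 823 of 32851 windows of all genes (2.51%). Allowing the run to begin up to 5 bases off the annotated start gave 4 of 8 host windows (50%), 41.9% of ribosomal protein windows and 18.3% of all windows. These are matches of letters, and no binding or translation was measured.

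Malat1 and Gas5 were abundant, and the other 8 genes were far lower, with Snhg8 highest among them. By mean CPM, which is a share of the library, Malat1 ranked 38th of the 23967 genes with a count and 1st among 4510 long non-coding genes, and Gas5 ranked 301st and 3rd. Snhg8 ranked 4790th of all genes and 68th among long non-coding ones, the other 6 Snhg genes ranked between 6658th and 10286th of all, and Neat1 ranked 8520th. In CPM 4 of the 10 genes exceeded the median tested gene at 13.9, namely Malat1, Gas5, Snhg8 and Snhg6, and per length 7 of the 10 exceeded the median of 9.75 TPM. The 10 genes together took 0.159% to 0.437% of a library's fragments, where all long non-coding genes took 1.56% to 2.00%. In bulk RNA a difference in level can come from the number of cells that make the RNA or from the amount per cell, and these cannot be told apart.

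Levels were compared between genes per length, as TPM, which divides counts by the exon length used in counting and scales them to the library. In mean TPM over the 8 libraries the order was Malat1 at 728, Gas5 at 354, Snhg8 at 101, Snhg6 at 35.8, Snhg3 at 26.2, Snhg15 at 18.3, Snhg1 at 10.4, Snhg5 at 8.70, Snhg12 at 5.35 and Neat1 at 0.926. Neighbours in that order were apart in every library, with no overlap of their ranges, only between Gas5 and Snhg8, Snhg8 and Snhg6, and Snhg12 and Neat1. Malat1 exceeded Gas5 in 8 of 8 libraries, although their ranges of TPM over libraries, 411 to 1312 for Malat1 and 287 to 413 for Gas5, overlapped. The neighbours from Snhg6 to Snhg12 kept their order in 6 or 7 of the 8 libraries. Malat1 exceeded its genomic neighbour Neat1 343 to 1450 times in TPM. Among all genes, ranks by mean TPM were lower than those by CPM for Malat1, Gas5 and Neat1, and higher for the 7 Snhg genes. Among 23126 genes with a count and at least 200 bases, Malat1 ranked 227th, Gas5 534th, Snhg8 1794th and Neat1 13626th. Among the 4491 long non-coding genes of these, Malat1 ranked 4th, Gas5 12th and Neat1 1761st.

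The order of Malat1 and Gas5 depends on the length. Gas5 is counted over 3760 bases, since its 25 annotated transcripts together make 91.3% of its span exonic, whereas the median transcript has 629 bases. With median transcript lengths for the 8 hosts, an alternative chosen after the data were seen, Gas5 stood at 2115 and Malat1 over Gas5 was 0.344. Values on these lengths are the TPM above adjusted for each gene's own length. They were not scaled to the library again, so they are compared only with each other. Malat1 and Neat1 were then shortened by the same rule as well, to medians of 606 and 2017 bases set by short annotated transcripts. This gave a ratio of 3.97 for Malat1 over Gas5, so the order turned only where the hosts alone were shortened. It put Neat1 at 9.53 beside 9.51 for Snhg12, again without scaling to the library. The counted length of the other hosts was between 1.62 times the median transcript for Snhg8 and 4.93 times for Snhg1. Among the 8 hosts, Gas5 supplied 82.8% to 88.0% of the fragments in every library on the counts themselves, which do not depend on length.

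**Figure D1:**
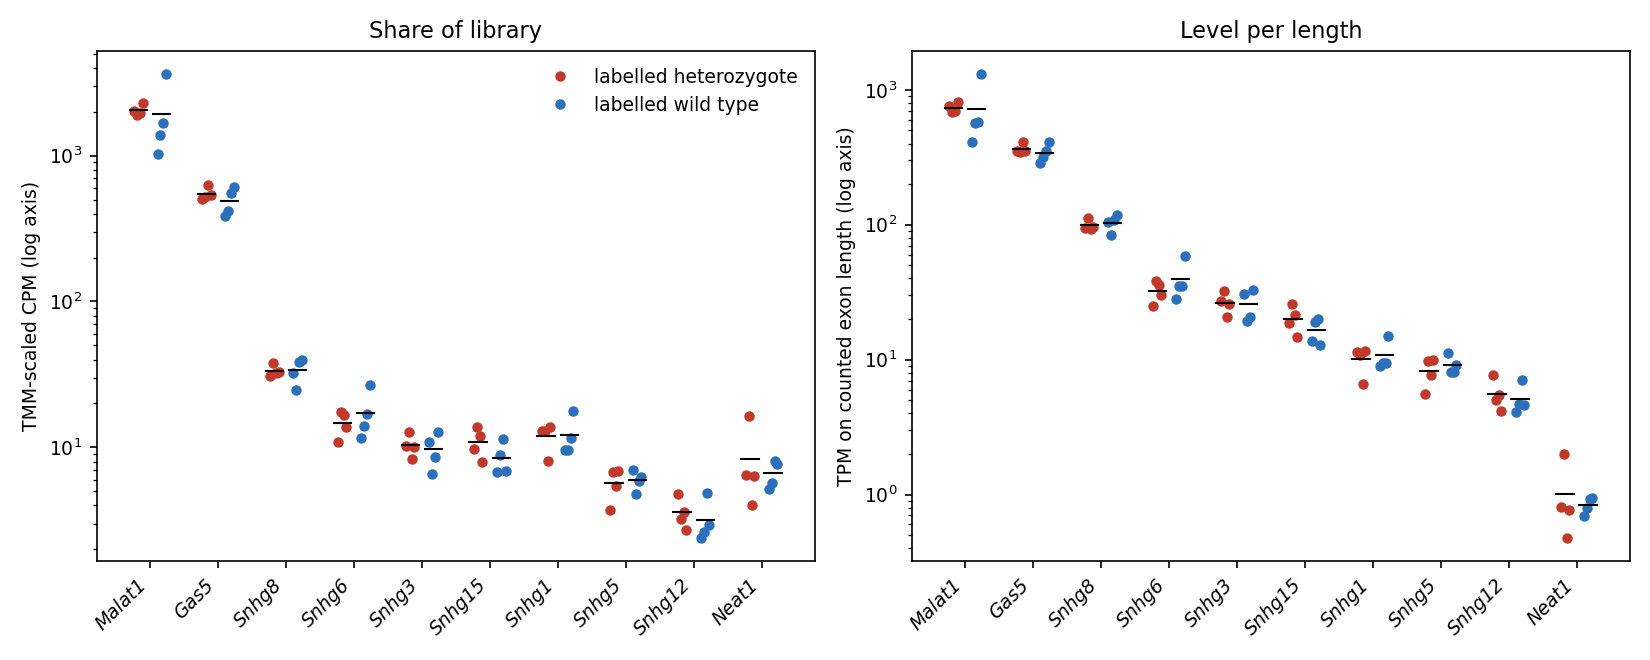
Level of each gene in the 8 libraries, as TMM-scaled CPM (left, log axis) and as TPM on the counted exon length (right, log axis); points are libraries, red for those labelled heterozygote and blue for those labelled wild type, and black bars are group means. Malat1 and Gas5 stand above the rest on both scales, Neat1 is lowest per length at a mean of 0.926 TPM, and the red and blue points overlap for every gene.

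None of the 10 genes passed the test between the labels. 0 of 10 passed an adjusted p of 0.05 (edgeR quasi-likelihood, Benjamini-Hochberg over 13992 genes), beside 0% of all genes tested, and 0 of 10 had an unadjusted p under 0.05, beside 5.66% of all genes (2.37% higher and 3.29% lower in libraries labelled heterozygote). In 0 of 10 did the 4 libraries of one label lie wholly above those of the other, beside 3.47% of all genes. The log2 fold change, labelled heterozygote over labelled wild type, was positive for 6 and negative for 4, with a median of 0.09 beside -0.02 for all genes tested, of which 48% were positive. Removing the trend with GC content and length put the median at -0.05, and leaving out 1 library put it between -0.05 and 0.23, so it kept no direction. Exact two-sided permutation tests over the 70 assignments of libraries gave p from 0.200 to 0.943, where the smallest p possible is 0.0286.

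**Figure D2:**
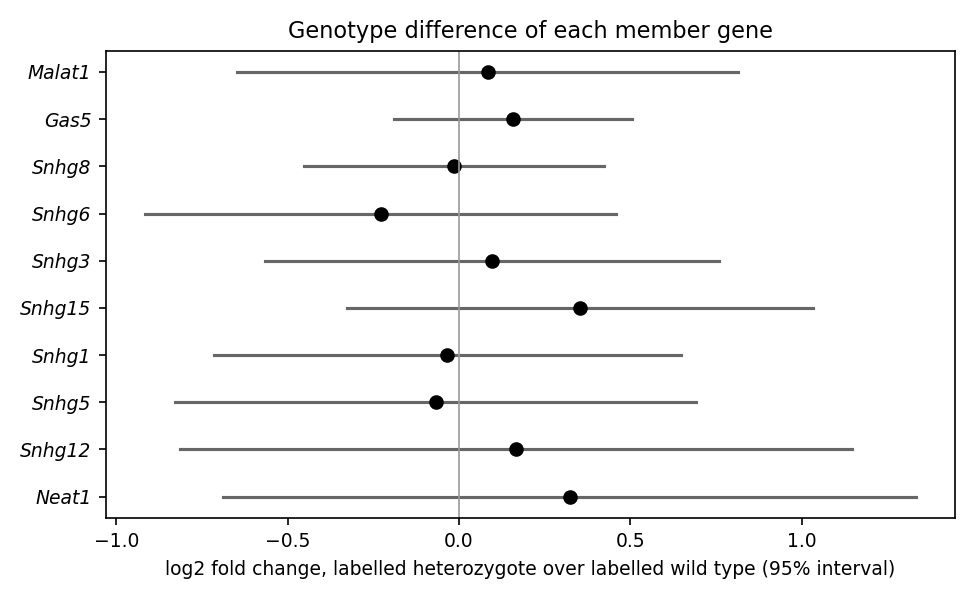
Log2 fold change of each gene, libraries labelled heterozygote over those labelled wild type (x axis), with dots for the edgeR estimate and lines for its 95% interval; genes run down the page by mean TPM. All 10 intervals cross 0, and they are narrowest for Gas5 (-0.19 to 0.51) and Snhg8 (-0.45 to 0.42).

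Malat1, the speckle RNA, had 2019, 1908, 1968 and 2290 CPM in HET 1 to HET 4, against 1029, 1380, 1683 and 3628 CPM in WT 1 to WT 4. The libraries labelled heterozygote lay close together and inside the range of those labelled wild type, where WT 4 alone was above all others and the other three below all libraries labelled heterozygote. Malat1 averaged 2046 ± 169 CPM in libraries labelled heterozygote and 1930 ± 1163 CPM in those labelled wild type (SD, n = 4 each). In edgeR this was a log2 fold change of 0.08 ± 0.33 (SE), with a 95% interval of -0.65 to 0.82 and an adjusted p of 0.972. Its size rests on WT 4: without that library the log2 fold change was 0.58 and its unadjusted p 0.00688, with an adjusted p of 0.898. Leaving out WT 1 instead gave -0.12 and leaving out WT 2 gave -0.03, so the direction turned with either of these libraries.

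Neat1, the paraspeckle scaffold, had 6.46, 16.5, 4.04 and 6.35 CPM in HET 1 to HET 4, against 5.17, 5.68, 8.09 and 7.71 CPM in WT 1 to WT 4. HET 2 held the highest and HET 3 the lowest value of all 8, so the range of the libraries labelled heterozygote enclosed the other. These values rest on 74 to 270 fragments per library over 20771 bases, so the depth for Neat1 is low. Its fitted log2 fold change of 0.32 ± 0.45 (SE) had a 95% interval of -0.69 to 1.33 and an adjusted p of 0.931 in edgeR, and it was -0.25 without HET 2.

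Gas5, the host with the most fragments, carries 10 annotated snoRNA genes on chromosome 1 at 161034422 to 161038539 on the plus strand. It had 505, 519, 631 and 534 CPM in HET 1 to HET 4, against 387, 414, 553 and 608 CPM in WT 1 to WT 4. WT 1 and WT 2 lay below all other libraries, and WT 3 and WT 4 lay among those labelled heterozygote. Gas5 averaged 547 ± 57.3 CPM in libraries labelled heterozygote and 491 ± 107 CPM in those labelled wild type (SD, n = 4 each). At 0.16 ± 0.16 (SE) on the log2 scale, with an adjusted p of 0.904 in edgeR, its fold change had a 95% interval of -0.19 to 0.51, which is 0.877-fold to 1.42-fold. Its direction was the same under all 18 alternatives run, from 0.06 to 0.28, though it passed the threshold in 0 of them.

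Snhg8, host of the box H/ACA snoRNA Snora24, stood after Gas5 in TPM among the hosts. It had 30.8, 38.1, 32.2 and 32.9 CPM in HET 1 to HET 4, against 32.1, 24.8, 38.7 and 39.7 CPM in WT 1 to WT 4. The values labelled heterozygote fell inside the range of those labelled wild type. In edgeR its log2 estimate of -0.01 ± 0.20 (SE) carried an adjusted p of 0.994, and the 95% interval runs from 0.731-fold to 1.34-fold. Its sign turned under 8 of 18 alternatives, which ran from -0.15 to 0.07.

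Snhg15, host of Snora9, had 9.72, 13.9, 11.9 and 7.98 CPM in HET 1 to HET 4, against 6.74, 8.93, 11.4 and 6.91 CPM in WT 1 to WT 4. HET 2 and HET 3 exceeded every library labelled wild type, and HET 1 and HET 4 did not. The log2 fold change of 0.35 ± 0.30 (SE; adjusted p = 0.879, edgeR; exact permutation p = 0.200) was the highest of the 10. It was positive under all 17 alternatives that could be run, from 0.21 to 0.53, and passed the threshold in 0 of them.

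Snhg6, host of Snord87, had 10.9, 17.4, 16.8 and 13.8 CPM in HET 1 to HET 4, against 11.6, 14.0, 16.8 and 26.7 CPM in WT 1 to WT 4. WT 4 was again the highest. The log2 fold change of -0.23 ± 0.31 (SE; adjusted p = 0.930, edgeR) was the lowest of the 10, and it was 0.06 without WT 4.

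Snhg1, which carries 8 annotated snoRNA genes including Snord22, had 12.9, 12.9, 8.02 and 13.8 CPM in HET 1 to HET 4, against 9.60, 9.66, 11.7 and 17.7 CPM in WT 1 to WT 4. HET 3 stood apart below the rest of its label, and WT 4 was the highest library. Its fitted log2 fold change was -0.03 ± 0.30 (SE), with an adjusted p of 0.991 in edgeR.

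Snhg3, host of the box H/ACA snoRNAs Snora73a and Snora73b, ranged from 8.29 to 12.8 CPM in libraries labelled heterozygote and from 6.60 to 12.7 CPM in those labelled wild type. Snhg5, host of the box C/D snoRNAs Snord50a and Snord50b, ranged from 3.71 to 6.91 CPM in libraries labelled heterozygote and from 4.81 to 6.95 CPM in those labelled wild type. Snhg12, host of Snora44, Snora61 and Snord99 among others, ranged from 2.71 to 4.81 CPM in libraries labelled heterozygote and from 2.40 to 4.83 CPM in those labelled wild type. The ranges overlapped in all 3 genes, with the lowest library labelled wild type for Snhg3 and Snhg12 and labelled heterozygote for Snhg5. Their log2 fold changes were 0.10 ± 0.30 for Snhg3, -0.07 ± 0.34 for Snhg5 and 0.17 ± 0.44 for Snhg12 (SE; adjusted p 0.967, 0.982 and 0.959 in that order of genes, edgeR). Their 95% intervals ran from 0.676-fold to 1.69-fold for Snhg3, from 0.564-fold to 1.62-fold for Snhg5 and from 0.569-fold to 2.21-fold for Snhg12, on 53 to 289 fragments per library. Snhg12 was at 0.0037 without HET 1 and at 0.43 without WT 3.

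Within labels, Gas5 and Snhg8 varied least. Their pooled SD of log2 CPM within labels was 0.25 and 0.24, where 20.1% and 19.4% of the genes tested had a lower one and the median over all genes was 0.46. Malat1 at 0.56 and Neat1 at 0.64 varied more than the median gene. For Malat1 nearly all of this spread came from the libraries labelled wild type, where the highest value was 3.53 times the lowest, against 1.20 times among those labelled heterozygote.

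**Figure D3:**
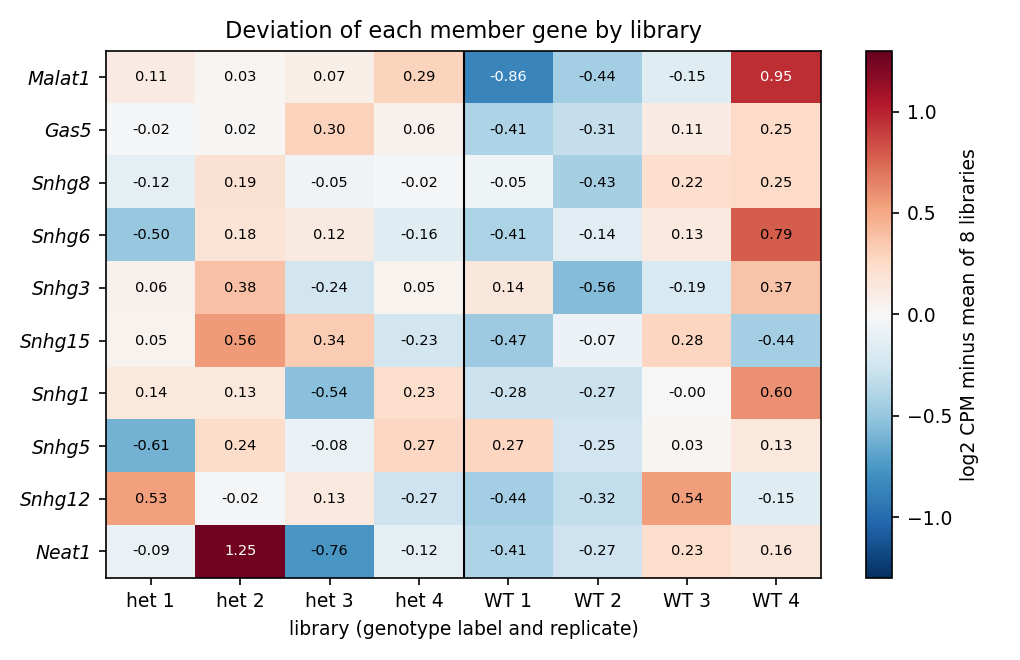
Deviation of each gene from its mean over the 8 libraries, in log2 CPM (colour and printed values), with genes down the page by mean TPM, the 4 libraries labelled heterozygote left of the line and the 4 labelled wild type right of it. WT 4 is red for Malat1 (0.95), Snhg6 (0.79) and Snhg1 (0.60), WT 1 and WT 2 are mostly blue, and Neat1 stands out in HET 2 (1.25).

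Libraries of the same label stood apart from each other. WT 4 held the highest value for 4 of the 10 genes and HET 2 for 3, while WT 1 held the lowest for 4. The mean deviation of the 8 hosts was -0.06, 0.21, -0.0038 and -0.0098 in HET 1 to HET 4, against -0.21, -0.29, 0.14 and 0.22 in WT 1 to WT 4. WT 1 and WT 2, lowest for the hosts, are also the libraries whose deviations rise most with GC content, and 9 of the 10 genes lie below the median GC content of 49.0% of genes tested. The part of GC content in these deviations was not tested.

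The 8 hosts moved together only in part. Over the 28 pairs of hosts, Pearson's r of log2 CPM over 8 libraries had a median of 0.32, ran from -0.57 for Snhg5 with Snhg12 to 0.72 for Snhg3 with Snhg8, and was positive in 22. These are descriptions over libraries that share depth and composition.

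Of 4 relations tested over the 8 libraries with exact permutation of pairings, 0 passed Benjamini-Hochberg adjustment. Malat1 and Neat1, neighbours on chromosome 19, gave r = 0.24 (p = 0.538) and rho = 0.24 (p = 0.582), exact permutation. Gas5 with the mean of the 7 Snhg genes gave r = 0.68 (exact permutation p = 0.0638, adjusted 0.0851) and rho = 0.60 (p = 0.132). Without WT 1 and WT 2, the libraries farthest from the median of Gas5, r was 0.06 (exact permutation p = 0.8875). Malat1 with the mean of the 8 hosts gave r = 0.71 (exact permutation p = 0.0454, adjusted 0.0851) and rho = 0.55 (p = 0.171), and r was 0.47 (p = 0.344) without WT 1 and WT 4. The mean of the 8 hosts with the mean of 80 ribosomal protein genes gave r = 0.74 (exact permutation p = 0.0369, adjusted 0.0851) and rho = 0.74 (p = 0.0458, adjusted 0.183), and r was 0.43 (p = 0.411) without WT 2 and WT 4. These pairs are the libraries farthest from the median of the measure named first, so a smaller r without them follows in part from the choice. With any 1 library left out, r stayed at 0.60 to 0.79 for Malat1 with the hosts. Taken as deviations from the label means, r was 0.68 for Gas5 with the Snhg genes, 0.70 for Malat1 with the hosts and 0.72 for the hosts with ribosomal protein genes. Scaled by library size alone instead of TMM, r fell to 0.48 for Gas5 with the Snhg genes (exact permutation, adjusted p = 0.317). On that scale it was 0.52 for the hosts with ribosomal protein genes (exact permutation, adjusted p = 0.317). For Malat1 with the hosts it was 0.68 (exact permutation, adjusted p = 0.240).

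At a minimum mean level of 10 CPM, 7806 genes were searched. Those whose log2 CPM followed Malat1 most closely over the 8 libraries were Gm37376 (r = 1.00), Sat1 (r = 0.93), Mrpl48 (r = 0.93), Fopnl (r = 0.92) and Nrgn (r = 0.91). Those most like Neat1 were Trmt6, Krr1, Nbdy, Cutc and Ccdc12, with r from 0.92 to 0.95. Those most like the mean of the hosts were Lsm6, a subunit of the Lsm rings of RNA decay and splicing, at r = 0.99, then Ddx1, Smim4, Isg20 and Coq7 at 0.93 to 0.95. With so many genes and 8 libraries, high values of r are a description only.

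Gm37376, the closest of them, is a 453-base gene model on the plus strand inside Malat1, at chr19:5801941-5802393, opposite to the strand of Malat1. Its count was 13092, 10135, 11646 and 14180 in HET 1 to HET 4, against 7977, 9013, 11512 and 27058 in WT 1 to WT 4. Divided by the count of Malat1 in the same library, it was 0.317 to 0.328 in all 8 libraries, although Malat1 itself ranged 3.53-fold. Per base, Gm37376 had 4.99 times the fragments of Malat1. Another plus-strand model inside Malat1, of 425 bases and without a symbol, had 0 to 16 fragments, at most 0.000211 of Malat1, so the opposite-strand fragments were not spread evenly over the gene.

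**Figure D4:**
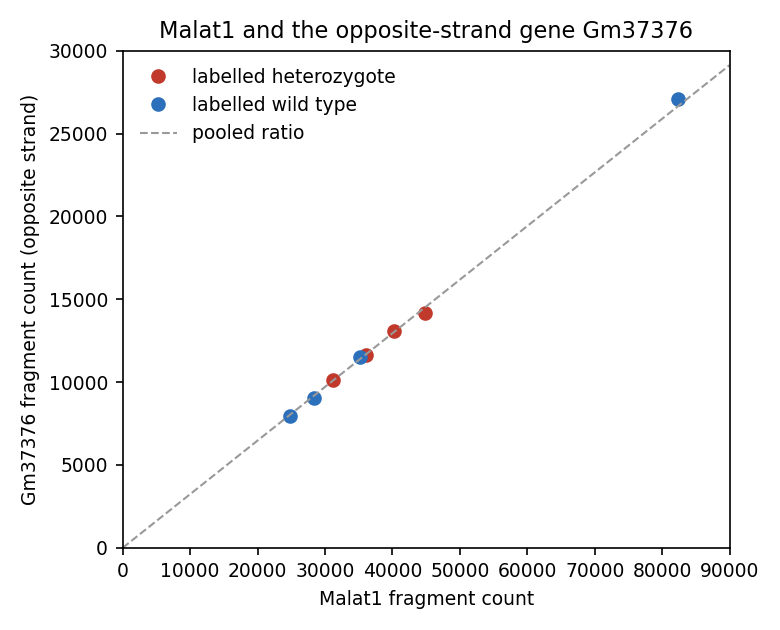
Fragment count of the opposite-strand gene model Gm37376 (y axis) against that of Malat1 (x axis), 1 point per library, red for those labelled heterozygote and blue for those labelled wild type; the dashed line is the ratio of the summed counts. All 8 points lie close to the line, at ratios of 0.317 to 0.328.

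Among the hosts, Gm17300, a long non-coding gene opposite to Snhg3 that shares 705 exon bases with it, had 1.01 to 1.22 times the count of Snhg3. Mcmdc2, opposite to the end of Snhg6 over 127 bases, had 0.0313 to 0.136 times the count of Snhg6. For scale, in 18 single-exon genes lying opposite to an exon of a gene with a mean of at least 1000 counts, the median ratio per base was 0.0213, 5 exceeded 0.1, 3 exceeded 1, and Gm37376 was the highest. Tsix, the natural antisense RNA of Xist, had 0.173 to 0.278 times the count of Xist in the 4 libraries with Xist counts, which were HET 1, HET 4, WT 1 and WT 4. Xist was at 0 in the other 4, so the Xist-positive libraries, as from female mice, were 2 per label. Counting was strand-specific per the file headers, and whether the fragments opposite Malat1 and Snhg3 are antisense RNA or misassigned strands was not tested.

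The snoRNAs were hardly measured, although 30 snoRNA genes are annotated within the 8 hosts on their strand. Of these, 26 overlap counted exons of the host, where a fragment that matches both genes goes to neither, and 1 of the 26 had any fragments, 6 in all. The 4 that lie outside counted exons had 61 fragments over the 8 libraries. They include Snord87, in an intron of Snhg6 at chr1:9942463-9942549 on the minus strand, and Snora73b, in an intron of Snhg3 at chr4:132352322-132352526 on the minus strand, which are shown as the only 2 of these 4 with any fragments. Capitals mark the C box (TGATGA) and D boxes (CTGA) of Snord87 and the ACA box of Snora73b.
Snord87: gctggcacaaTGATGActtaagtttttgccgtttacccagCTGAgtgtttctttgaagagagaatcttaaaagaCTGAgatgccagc
Snora73b: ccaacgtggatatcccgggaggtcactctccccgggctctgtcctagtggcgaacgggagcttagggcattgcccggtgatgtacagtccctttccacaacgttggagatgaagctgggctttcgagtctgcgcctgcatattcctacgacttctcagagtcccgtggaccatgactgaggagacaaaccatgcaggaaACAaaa
Snord87 had 0, 4, 1 and 3 fragments in HET 1 to HET 4, against 4, 4, 13 and 9 in WT 1 to WT 4. Snora73b had 10, 1, 0 and 2 fragments in HET 1 to HET 4, against 4, 0, 0 and 6 in WT 1 to WT 4. For Snord87 every library labelled wild type was at or above every library labelled heterozygote, and the groups met at 4 fragments. Snora73b showed no such order. No test between labels was made on counts this low, and the host levels above do not measure the snoRNAs themselves. The same rule removes host fragments, since 15.2% to 29.8% of the exon bases of Gas5, Snhg1, Snhg3, Snhg8 and Snhg12 are shared with other genes on the same strand, against 0% for Snhg6.

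The proteins that work with these RNAs were read from the same test. Of the 8 core snoRNA-binding proteins, 0 passed the adjusted p, 3 log2 fold changes were positive and 5 negative, with a median of -0.05. Gar1, of the H/ACA core, averaged 52.8 ± 7.34 CPM in libraries labelled heterozygote and 71.8 ± 12.2 CPM in those labelled wild type (SD, n = 4 each), a log2 fold change of -0.44 ± 0.17 (SE; unadjusted p = 0.0294, adjusted p = 0.850, edgeR). The C/D core proteins Nop58 (0.23), Fbl (-0.21) and Nop56 (-0.11) had smaller log2 fold changes of both signs. Of 10 assembly factors, 0 passed, 3 were positive and 7 negative (median -0.03).

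Naf1, which assembles H/ACA particles before Gar1 replaces it, was the one listed assembly factor with an unadjusted p under 0.05 (edgeR), beside 5.66% of all genes tested. It had 5.16, 4.96, 8.73 and 4.71 CPM in HET 1 to HET 4, against 1.24, 2.96, 3.54 and 3.04 CPM in WT 1 to WT 4. The labels did not overlap for Naf1, as in 3.47% of all genes tested. Its log2 fold change was 1.13 ± 0.45 (SE; unadjusted p = 0.0329, adjusted p = 0.850, edgeR). Naf1 and Gar1 were each named for the lowest unadjusted p of their list, and neither passed the threshold. A link between the estimates for Naf1 and Gar1 was not tested.

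Of 11 paraspeckle proteins, 0 passed, 6 were positive and 5 negative (median 0.03), with Rbm14 at 0.76 ± 0.38 (SE, log2; adjusted p = 0.850, edgeR). Of 10 nuclear speckle proteins, 0 passed, 4 were positive and 6 negative (median -0.14). Pnn, a speckle protein of splicing complexes, was at -0.55 ± 0.24 (SE; unadjusted p = 0.0468, adjusted p = 0.850, edgeR). Of 14 factors of nonsense-mediated decay, the pathway that degrades spliced host RNA, 0 passed, 8 were positive and 6 negative (median 0.19). The medians of the speckle, paraspeckle and decay lists stand beside -0.02 for all genes tested.

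The 80 ribosomal protein genes tested had 61 positive and 19 negative log2 fold changes, with a median of 0.08, and 0 passed. Of all genes tested 48% were positive, with a median of -0.02. The mean deviation of the ribosomal protein genes in log2 CPM was -0.12, 0.0070, 0.20 and 0.11 in HET 1 to HET 4. It was -0.097, -0.35, 0.12 and 0.13 in WT 1 to WT 4, so WT 2 was lowest and the labels overlapped. 6 of the 7 other Snhg genes were tested, all with a mean under 10 CPM, with 2 positive and 4 negative estimates (median -0.29), and 0 passed. Of 19 other long non-coding RNAs tested from a list of 27, 0 passed and 11 were positive. Kcnq1ot1, the imprinted RNA of the Kcnq1 locus, averaged 17.7 ± 4.13 CPM in libraries labelled heterozygote and 8.32 ± 5.12 CPM in those labelled wild type (SD, n = 4 each; log2 fold change 1.09 ± 0.44 SE, unadjusted p = 0.0317, adjusted p = 0.850, edgeR). 2900097C17Rik averaged 485 ± 30.8 CPM in libraries labelled heterozygote and 395 ± 62.4 CPM in those labelled wild type (SD, n = 4 each), with a log2 fold change of 0.30 ± 0.12 (SE; unadjusted p = 0.0357, adjusted p = 0.850, edgeR).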

How the data were processed

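RNA of 8 libraries was sequenced as paired reads of 75 bases from strand-specific, ribosomal RNA-depleted libraries, per the labels' protocols. The submitters' processing notes name Trim Galore, cutadapt, STAR 2.5.1b, featureCounts 1.5.1 and GRCm38. The deposited values are raw fragment counts per gene, made by the authors with featureCounts 1.6.2, reverse-stranded, both ends mapped, over GENCODE M17 exons, per the file headers. Which of both versions made the counts was not resolved. Multi-mapping fragments and those matching several genes on 1 strand were left out.

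Symbols came from GENCODE M21 (53620 of 53715 genes matched). In edgeR 4.0.16 (R 4.3.3), genes were kept by filterByExpr, scaled by TMM (factors 0.946 to 1.08) and tested with robust quasi-likelihood fits, genotype as the only term, two-sided, Benjamini-Hochberg adjusted over 13992 genes, threshold 0.05. The fit was tested on simulated data. DESeq2 1.42.0 and limma 3.58.1 were alternatives. CPM values are TMM-scaled, log2 CPM has a prior count of 2, and TPM uses the counted exon length. Every pair of libraries differed by more than sampling noise. The sources used here do not give whether mice were littermates. Intervals cover the spread between these libraries. Genes named were the 10 genes, nested snoRNA genes, up to 4 of each list by unadjusted p, and the 5 most alike, except a few that are not reported here; opposite-strand genes and both snoRNA sequences were chosen after their values were seen. The genes and lists were chosen with earlier results of these data known.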

Additional observations from a re-analysis of the deposited data

Results flagged for a closer look

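Snhg1 in HET 3 stood apart within its label. Its log2 CPM was 3.02, and the gap to the nearest of the other 3 libraries labelled heterozygote was 0.873 of the group's range, above the 95% limit of Dixon's test for 4 samples. Of 20 gene-by-label groups examined 1 was picked out in this way, and chance picks about 1 in 20. Without HET 3, the log2 fold change of Snhg1 was 0.11 instead of -0.03, and it was far from the threshold both times.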

How the results depend on the processing

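Under 18 alternatives (8 left-out libraries and 10 other settings), 0 of the 10 genes passed the threshold, and the lowest adjusted p of any was 0.546. Over all genes, edgeR and limma called 0 under every alternative (limma had 1461 at an unadjusted p under 0.05), and DESeq2 called 29; the cause was not tested. The samples share only a replicate number (correlations of same-numbered libraries 0.00565 to 0.0961); with the replicate number as a block 0 genes were called and 946 had an unadjusted p under 0.05.

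The sign of several log2 fold changes turned. Snhg8 was at 0.011 with upper-quartile scaling, 0.029 with limma, 0.0013 with scaling on protein-coding genes and 0.0038 with the replicate block, and its mean difference of log2 CPM was -0.056 with library size alone. Snhg1 was at 0.038 with limma. With the GC and length trend removed, Malat1 was at -0.0042 and Snhg3 at -0.10. Leaving out 1 library gave -0.12 to 0.58 for Malat1, -0.25 to 0.55 for Neat1, -0.12 to 0.21 for Snhg1, -0.036 to 0.26 for Snhg3, -0.17 to 0.10 for Snhg5, -0.37 to 0.060 for Snhg6 and -0.12 to 0.072 for Snhg8. The cause was not tested. The relation of Gas5 with the 7 Snhg genes ranged from 0.55 to 0.85 and that of the hosts with ribosomal protein genes from 0.50 to 0.83 with 1 library left out, both passing the adjusted threshold (exact permutation p = 0.0417, adjusted) without HET 3. A minimum of 10 CPM left 5 of the 10 genes, and the others gave no value there. Neat1, Snhg5 and Snhg12 have the fewest fragments, 53 to 270 per library.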
